A study of Mus musculus with 4 samples.

Results

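The regions described here are 881 autosomal ATAC-seq peaks that were more accessible in both Carm1 mutant heart libraries than in either wild-type library, out of 87948 peaks in all (86612 on autosomes). ATAC-seq uses a transposase to cut open chromatin and tag it for sequencing, and a peak is a stretch of genome where such cuts pile up. A peak was chosen from its CPM (its count, scaled to a total of 1000000 counts in peaks per library), with 0.5 added to every value. The smaller of the 2 mutant values had to exceed the larger of the 2 wild-type values by at least 75%, and the mean mutant CPM, before the addition, had to be 3 or more. These peaks are called gained peaks below. They were chosen from the comparison of mutant with wild type, so their levels are given as a description, and no p-value is attached to them.

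The libraries came from hearts of mice at postnatal day 14, 2 labelled wild type and 2 labelled Carm1 mutant. The labels gave no allele, promoter, Cre line, strain or sex, and did not say whether animals were pooled, so replicates may differ for technical or biological reasons. The libraries held 15945420 to 19091969 counts in peaks. The strongest gene-end peak of Myh6, which encodes the alpha heavy chain of cardiac myosin, had 271 to 319 CPM in the 4 libraries, and that of the skeletal muscle regulator Myod1 had 0.971 to 3.52. At Carm1 itself the peak at the lower-coordinate gene end had 90.9 CPM in both wild-type libraries and 89.8 and 94.9 in the mutant libraries. The altered part of the gene is not given in the labels, so this peak does not check them.

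Carm1 is an arginine methyltransferase that is recruited to promoters and enhancers as a coactivator and methylates histones and other chromatin proteins. Open chromatin marks promoters, where transcription starts, and distal elements such as enhancers, which act on genes over a distance and are more specific to a cell type than promoters are. In the first weeks after birth the mouse heart switches from fetal to adult contractile proteins, from glucose to fatty acid use, and out of the cell cycle.

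Few gained peaks lay on an annotated transcription start. A table of RefSeq promoter windows (GRCm38.p6, the assembly of mm10; 250 bases before to 50 after a start) held windows for 17492 of 21887 protein-coding genes, and 24 gained peaks overlapped 25 of its windows. Of these windows, 10 belonged to protein-coding genes and 15 to long noncoding RNA (lncRNA) genes. The 250 bases before the start are shown for the 4 such peaks with the highest mutant CPM, because these are the places where a gained peak meets a known start. Capitals mark matches, on either strand, to AGATAA (bound by GATA factors), GGAATG (the MCAT element, bound by TEAD factors), TGANTCA (bound by AP-1), TATAAA (the TATA box), CAGCTG (an E-box) and the CArG box bound by SRF. The first is Ankrd1, a stress-responsive cardiac ankyrin repeat protein of the sarcomere and nucleus (chr19:36119845-36120094, minus strand). The second is an internal start of Synpo2l, an actin-associated protein of the Z-disc (chr14:20664575-20664824, minus strand). The third is Clcn4, a chloride-proton exchanger (chr7:7299558-7299807, minus strand), where the peak covered 87 bases of the window. The last is the lncRNA gene Gm30476 (chr17:73036841-73037090, plus strand).
Ankrd1: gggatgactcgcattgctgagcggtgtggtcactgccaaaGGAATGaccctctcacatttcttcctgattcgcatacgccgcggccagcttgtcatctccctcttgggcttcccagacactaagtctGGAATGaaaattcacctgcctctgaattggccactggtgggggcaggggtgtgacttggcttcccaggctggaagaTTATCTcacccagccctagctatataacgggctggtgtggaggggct
Synpo2l: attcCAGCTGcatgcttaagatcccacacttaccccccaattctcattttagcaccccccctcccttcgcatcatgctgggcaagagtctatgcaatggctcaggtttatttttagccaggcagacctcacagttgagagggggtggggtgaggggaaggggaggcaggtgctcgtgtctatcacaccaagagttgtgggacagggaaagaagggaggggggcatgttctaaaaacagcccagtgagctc
Clcn4: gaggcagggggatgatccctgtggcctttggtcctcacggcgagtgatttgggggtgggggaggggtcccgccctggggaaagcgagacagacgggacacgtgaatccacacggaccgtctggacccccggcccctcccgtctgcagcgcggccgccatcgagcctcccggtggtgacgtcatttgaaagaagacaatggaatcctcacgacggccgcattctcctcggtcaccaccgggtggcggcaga
Gm30476: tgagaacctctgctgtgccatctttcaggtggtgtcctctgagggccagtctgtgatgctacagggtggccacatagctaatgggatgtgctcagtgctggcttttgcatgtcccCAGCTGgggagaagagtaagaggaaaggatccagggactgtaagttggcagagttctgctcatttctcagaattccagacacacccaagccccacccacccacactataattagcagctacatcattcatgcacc

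In the Ankrd1 window the MCAT element began 123 and 210 bases before the start and the GATA match 47 bases before it. Over all 25 windows at gained peaks, the E-box letters CAGCTG occurred in 8 (32.0%), against 13.0% of 31396 autosomal windows and 12.9% of the 14352 that overlapped any peak. The other motifs are given with the share of all windows first and of windows that overlapped a peak second. GGAATG occurred in 4 (16.0%, against 12.5% and 10.8%), TGANTCA in 3 (12.0%, against 6.77% and 4.42%) and AGATAA in 3 (12.0%, against 9.94% and 5.45%). TATAAA occurred in 2 (8.0%), below its share of all windows (12.4%) and above that of windows that overlapped a peak (5.96%). The CArG box occurred in 0 (against 1.41% and 1.11%). With 25 windows, 1 window is 4.0% of the set, and a match of letters is not evidence of binding. The windows at gained peaks held a median of 3 CpG dinucleotides, below all windows (6) and windows that overlapped any peak (16). Their median G and C content was 51.6%, close to all windows (52.4%) and below windows that overlapped any peak (60.4%). Of the 25 windows, 15 were lncRNA starts. CpG-rich starts are typical of genes active in many cell types.

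At Ankrd1 the gained peak over the promoter had 16.3 and 12.0 CPM in the wild-type libraries and 40.1 and 39.4 in the mutant libraries. The Synpo2l peak had 17.9 and 15.2 against 37.8 and 32.7 CPM, and the Clcn4 peak 16.5 and 13.9 against 31.1 and 37.9. The Gm30476 peak, 70.9 kb from the nearest protein-coding gene end (Lclat1), had 11.1 and 12.3 against 26.2 and 22.3. The genotypes do not overlap in these 4 peaks, as the rule requires. The other 7 protein-coding genes with a gained peak on a promoter window were Slc51a, Trim69, Zfp459, Nacc2, Lrtm2, Sipa1l2 and Lctl. Of these, singled out after their values were seen, Slc51a encodes a subunit of a bile acid and steroid transporter (3.66 and 4.35 CPM in wild type, 8.54 and 9.60 in mutant) and Trim69 a ubiquitin ligase (2.68 and 2.99, then 5.85 and 9.97).

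One gained peak held a whole microRNA hairpin, and it is shown because the sequence of the product is known. It lay within Arpp21, a gene of a neuronal phosphoprotein, over Mir128-2 (peak chr9:112118334-112118923, hairpin chr9:112118636-112118711, minus strand, mm10). The 2 mature strands follow with the seed, bases 2 to 8, in capitals.
mmu-miR-128-3p: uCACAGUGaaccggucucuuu
mmu-miR-128-2-5p: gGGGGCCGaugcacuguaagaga

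This peak was weak, with 2.97 and 2.78 CPM in the wild-type and 5.62 and 5.77 in the mutant libraries, and it was singled out after its position was seen. Across the autosomes 129 peaks held a whole hairpin, of which 1 was gained. Accessibility over a hairpin says nothing about the amount of the microRNA.

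The 881 gained peaks were weak to moderate in strength. Their CPM ran from 0.114 to 25.8 in wild-type replicate 1 (median 2.06) and from 0.157 to 28.2 in wild-type replicate 2 (median 2.04). In mutant replicates 1 and 2 it ran from 1.25 to 58.6 (median 5.73) and from 1.88 to 61.5 (median 5.77). Neither library of a genotype dominated, since mutant replicate 1 was the higher mutant library in 450 peaks and replicate 2 in 431. Replicates of a genotype differed by a median of 0.19 on the log2 scale at gained peaks in each genotype, against 0.24 (wild type) and 0.28 (mutant) at other peaks of the same abundance. The rule favours peaks with close replicates. For this and later comparisons at the same abundance, peaks that were not gained were weighted. Their mean CPM over the 4 libraries then had the same distribution as in the gained peaks. In the wild-type libraries alone these other peaks were stronger than the gained peaks, with medians of 3.94 and 3.98 CPM.

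**Figure D1:**
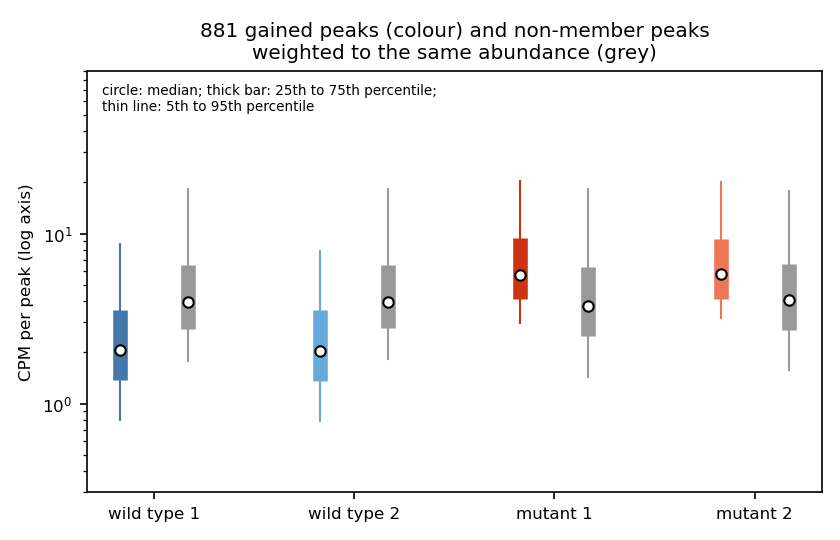
CPM per peak (log axis) in each of the 4 libraries for the 881 gained peaks (coloured) and for autosomal peaks that were not gained, weighted to the same abundance (grey). Circles are medians, thick bars span the 25th to 75th percentile and thin lines the 5th to 95th; gained peaks have medians of 2.06 and 2.04 CPM in wild type and 5.73 and 5.77 in mutant, while the grey medians lie between 3.76 and 4.08.

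The fold of the means (mean mutant over mean wild-type CPM, each with 0.5 added) had a median of 2.39, and 795 of the 881 reached 2 or more and 29 reached 4 or more. The stricter ratio used for the choice had a median of 1.96, with 405 peaks (46.0%) at 2 or more and 39 at 3 or more. Just inside the limit of 75% lay a peak 302.6 kb from Myc (1.14 and 1.83 CPM in wild-type libraries, 3.58 and 3.95 in mutant libraries). Just outside lay a peak within Rgs3 (3.37 and 2.15, then 6.27 and 8.15) and a peak near Gm13889 (2.17 and 2.62, then 4.96 and 5.58). The genotypes do not overlap in any of the 3, which the rule asks only of the first.

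A gained peak had a median count of 36 and 39 reads in the wild-type and 96 and 92 in the mutant libraries. Counting error alone gives an exact 95% Poisson interval of 25.2 to 49.8 around 36 and of 77.8 to 117 around 96. Such intervals leave out biological spread and duplicate reads. In edgeR's quasi-likelihood test over all peaks (Benjamini-Hochberg adjusted p under 0.05), 861 of the 881 were called higher, against 3.05% of all 87948 peaks. Without wild-type replicate 1 edgeR called 466 of them and without wild-type replicate 2 it called 360. The same contrast chose the peaks, so this count adds no evidence, and among autosomal peaks with a mean mutant CPM of 3 or more the share called higher was 3.72%. The 1771 other autosomal peaks that edgeR called higher missed the fold or the abundance limit of the rule. Turning the rule around, so that both wild-type libraries had to exceed both mutant libraries by the same factor at a mean wild-type CPM of 3 or more, gave 901 lost peaks, 1.04% of autosomal peaks against 1.02% for gained peaks. In 23.4% of autosomal peaks both mutant libraries lay above both wild-type libraries by any margin.

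The set of peaks depended on each library. With the rule applied to 3 libraries, leaving out wild-type replicate 1 or 2 chose 2061 or 1947 peaks, and leaving out mutant replicate 1 or 2 chose 2890 or 1956. The library left out then met the same fold in 42.7% (wild-type replicate 1), 45.2% (wild-type replicate 2), 30.3% (mutant replicate 1) and 43.5% (mutant replicate 2) of the peaks chosen without it. Over all 67719 autosomal peaks with a mean mutant CPM of 3 or more, the shares were 2.88, 3.04, 2.81 and 4.04% in the same order. The library left out was read against the libraries that chose the peaks, so these shares describe the choice and test nothing.

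Gained peaks were not found among the most accessible regions. They made up 1.52% of the autosomal peaks with a mean below 3 CPM over the 4 libraries, 1.35% of those from 3 to 5, 0.995% from 5 to 10, 0.612% from 10 to 20 and 0.218% from 20 to 50. None of the 2734 peaks with a mean of 50 CPM or more was gained. Lost peaks had a similar profile, with 1.37% below 3 CPM, 0.135% from 20 to 50 and 0 above. The rule used the same CPM values, so these shares describe the choice. The part of counting error in them was not tested.

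The strongest gained peak lay within Vgll4, which encodes a TEAD cofactor that competes with YAP (chr6:114888510-114889497), with 25.8 and 28.2 CPM in wild type and 58.6 and 61.5 in mutant. The next lay 338.4 kb from the nearest end of the growth regulator gene Myc, outside any protein-coding gene (chr15:62328198-62329252), with 20.5 and 23.4 against 49.7 and 56.6 CPM. A peak within Ripor2 (chr13:24565543-24566409), had 21.2 and 21.5 against 50.3 and 50.7. Of these 3, replicates of a genotype lay closest together at the Ripor2 peak. A peak within Arhgap21, which encodes a GTPase-activating protein (chr2:20939199-20940091), had 21.1 and 21.6 against 41.3 and 41.2 CPM. One 29.9 kb from Rgs3, a regulator of G protein signalling (chr4:62732232-62733600), had 19.9 and 21.8 against 39.1 and 42.7. These had folds of the means near 2 (1.91 and 1.94), while a peak within the phosphoinositide phosphatase gene Fig4 (chr10:41292786-41294020) had the highest fold of the 6 strongest, 3.18.

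The peaks with the largest ratios, a ranking that favours low wild-type values, were nearly closed in wild type and narrow. The 8 named here were 212 to 390 bp wide and had at most 1.31 CPM in any wild-type library. A peak 48.9 kb from Tpra1 (chr6:88960979-88961287) had 0.228 and 0.995 CPM in wild type and 7.23 and 13.4 in mutant. A peak 126.8 kb from Bmp4, a gene of a bone morphogenetic protein ligand (chr14:46517308-46517595), had 0.457 and 0.419 against 4.18 and 4.39. A peak within Prrg4 (chr2:104832578-104832851) had 0.171 and 0.210 against 2.93 and 4.08, and a peak 1.69 kb from Rhoh, a GTPase gene of blood cells (chr5:65858880-65859216), had 1.31 and 0.262 against 8.24 and 8.34. The other 4 lay nearest Clec2g, Plekhs1, AI593442 and Rtn1, with 3.22 to 4.71 CPM in the mutant on average. The wild-type values rest on few reads: at Prrg4 the counts were 3 and 4.

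**Figure D2:**
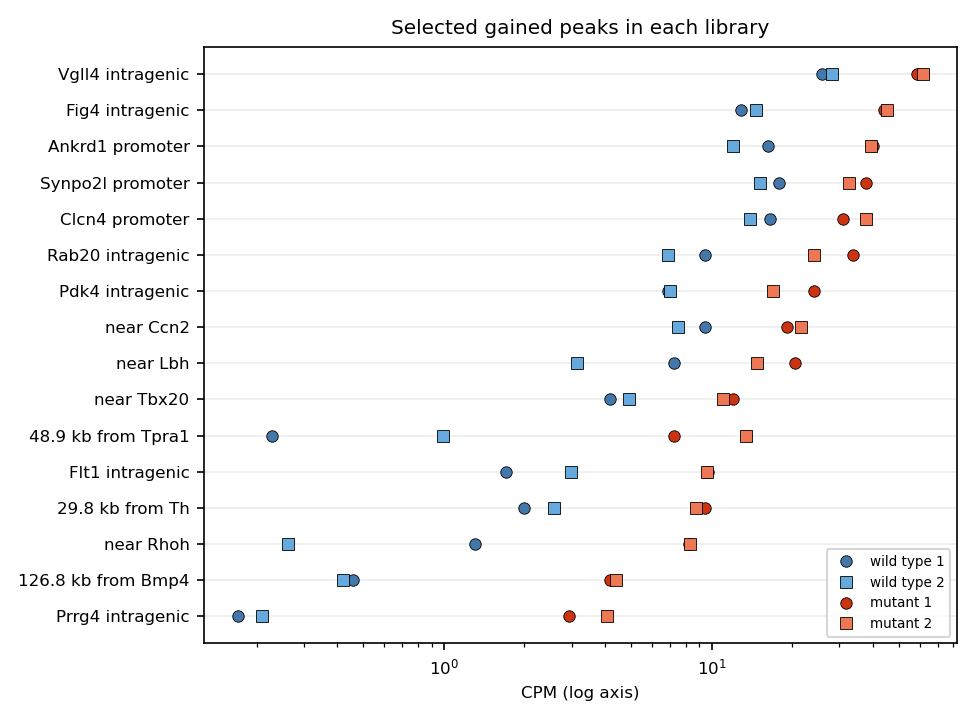
CPM (log axis) of 16 gained peaks in wild-type replicates 1 and 2 (blue circles and squares) and mutant replicates 1 and 2 (red circles and squares). In each row both mutant points lie to the right of both wild-type points, as the rule requires; the gap is wide where the wild type is nearly closed (0.171 and 0.210 CPM at Prrg4) and narrower at strong peaks such as Vgll4.

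Gained peaks lay away from gene ends more often than other peaks of the same mean CPM over the 4 libraries. The gene table gave both ends of each gene without strand, so either end stood in for a start. A protein-coding gene end lay within 1 kb of the midpoint in 45 of 881 gained peaks (5.11%, exact 95% binomial interval 3.75 to 6.78%), against 9.71% at the same abundance and 15.7% of all autosomal peaks that were not gained. An overlap with a promoter window of a protein-coding gene was found in 1.14% against 4.99%. With a lncRNA promoter window it was found in 1.70% against 1.63%, so the gap seen at protein-coding starts was not seen there. Peaks with a ratio of 2 or more had a lower share within 1 kb of a gene end (2.72%, against 9.54% at their abundance), and peaks chosen without wild-type replicate 1 a higher one (7.96%, against 10%). These shares are over peaks, which are not replicates, so they carry no test. The interval treats the peaks as independent and leaves out the spread between libraries.

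The midpoint lay inside a protein-coding gene in 478 gained peaks (54.3%), against 62.4% at the same abundance. In 384 (43.6%) it lay outside protein-coding genes and over 1 kb from their ends, against 34.5%. The median distance to the nearest protein-coding gene end was 21.5 kb against 18.7 kb. Far from genes the curves ran together, with 15.9% of gained peaks and 13.6% of others over 100 kb away. Lost peaks were farther out: their median distance was 40.2 kb, 43.7% lay over 50 kb from an end against 30.0% of gained peaks, and 2.22% lay within 1 kb.

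Gained peaks were narrower than peaks in general, and their median width was close to that of peaks of the same mean CPM over the 4 libraries. The median was 426 bp, against 425 bp at the same abundance and 534 bp in all other autosomal peaks. The middle of the distribution ran from 333 to 574 bp (25th to 75th percentile) in gained peaks and from 315 to 613 bp in the weighted comparison. Both extremes were thinner than in that comparison: peaks of 300 bp or less made up 15.9% against 21.2%, and peaks of 1000 bp or more 5.45% against 7.49%.

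**Figure D3:**
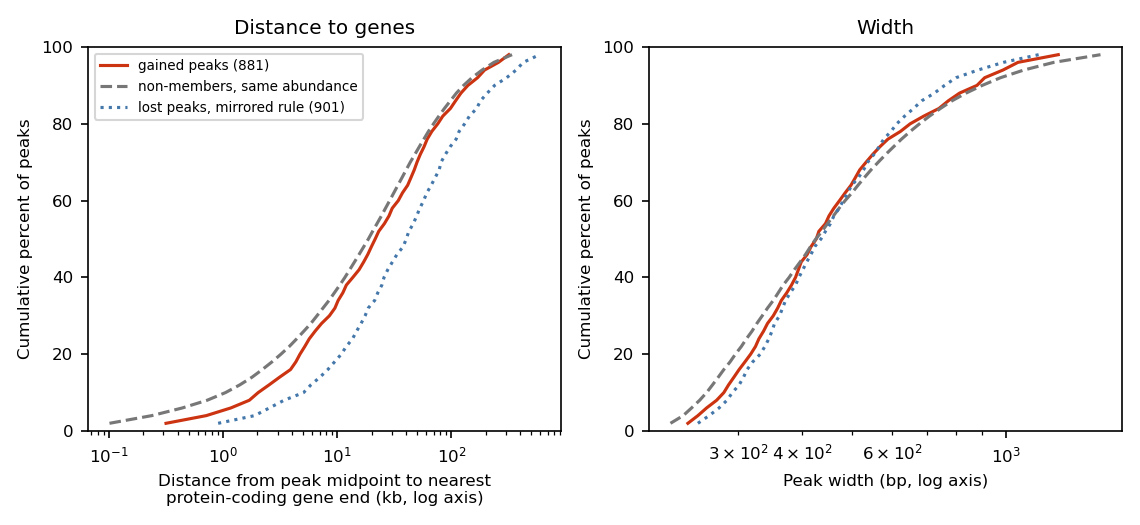
Cumulative percent of peaks (vertical axis) by distance from the midpoint to the nearest protein-coding gene end in kb (left, log axis) and by width in bp (right, log axis), for gained peaks (red), non-member autosomal peaks weighted to the same abundance (grey dashes) and lost peaks chosen by the mirrored rule (blue dots). Median distances are 21.5, 18.7 and 40.2 kb in that order, and median widths 426, 425 and 435 bp.

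Gained peaks lay near each other. Of the 881, 165 (18.7%) had another gained peak within 50 kb, measured between midpoints, against 7.48% of other peaks of the same abundance that had a gained peak that close. Within 20 kb the shares were 13.7% and 3.38%, and within 100 kb 26.4% and 13.1%. Gained peaks had a median of 7 autosomal peaks within 50 kb and the weighted comparison 8. The part of peak density in these shares was not tested. With gained peaks less than 1 kb apart merged, an alternative added after the data were seen, 863 remained and 15.8% had another within 50 kb. Peaks with a ratio of 2 or more had another such peak within 50 kb in 11.1%, against 3.21% at their abundance, and with 1 library left out of the choice, which lets in more peaks, the shares were 27.3 to 35.2% against 15.2 to 22.0%. Of the lost peaks, 13.0% had another lost peak within 50 kb, against 6.5% of other peaks of their abundance, and 4.0% had a gained peak that close, against 7.73%. Likewise, 3.97% of gained peaks had a lost peak within 50 kb, against 6.64% at their abundance.

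Peaks around a gained peak that missed the rule leaned the same way. Of 814 such peaks within 5 kb, 44.2% had both mutant libraries above both wild-type libraries, with a median log2 ratio of the means of 0.21. The share was 37.5% from 5 to 20 kb, 28.2% from 20 to 50 kb, 24.7% from 50 to 200 kb and 21.2% of 66086 peaks farther away, where the median was -0.05. By edgeR, 9.09% of the nearest group were called higher and 1.47% lower, against 1.82% and 2.68% in the farthest. Reads shared between adjoining peaks of 1 open stretch were not separated, and these shares were not weighted to a common abundance.

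**Figure D4:**
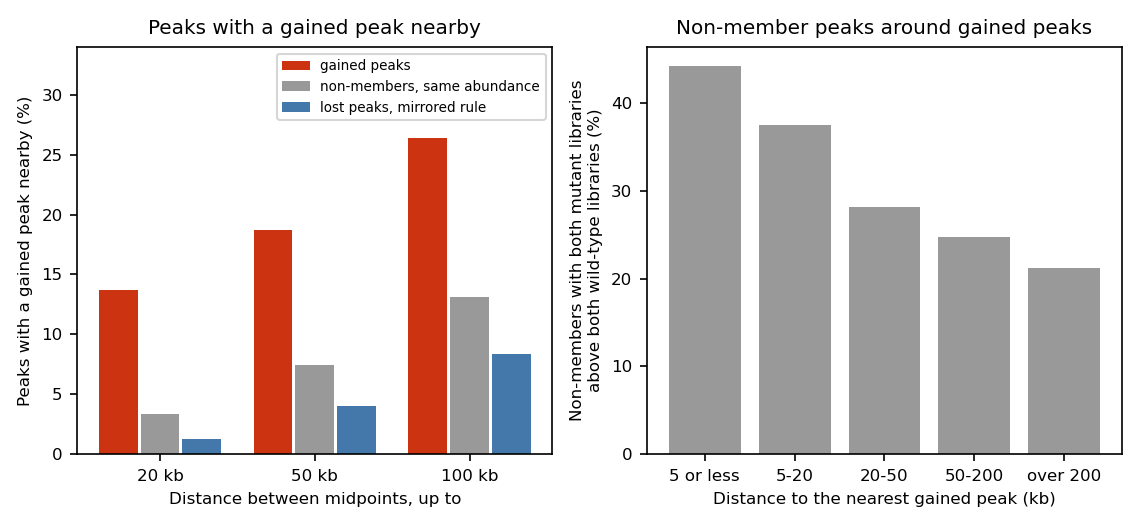
Left, percent of peaks with a gained peak within 20, 50 or 100 kb, for gained peaks (red, themselves not counted), other peaks of the same abundance (grey) and lost peaks (blue): 18.7, 7.48 and 4.0% at 50 kb. Right, percent of peaks that were not gained with both mutant libraries above both wild-type libraries, by distance to the nearest gained peak, falling from 44.2% within 5 kb to 21.2% beyond 200 kb. The right panel was not weighted by abundance.

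Linking gained peaks within 50 kb gave 716 lone peaks, 59 pairs, 10 groups of 3, 3 groups of 4 and 1 group of 5. The group of 5 spanned 13.8 kb of chromosome 8 across Rab20, a GTPase gene of endosomal traffic, and the adjoining end of Col4a2, a basement membrane collagen gene (chr8:11450183-11463956). Its peaks had 1.57 to 19.5 CPM in wild type and 3.89 to 42.3 in mutant. The strongest, 1.63 kb from Col4a2, had 18.4 and 19.5 CPM in wild type and 42.3 and 35.0 in mutant. A peak within Rab20 (chr8:11457263-11458319) had 9.42 and 6.86 against 33.8 and 24.1, and another there (chr8:11463408-11463956) had 2.40 and 2.20 against 6.09 and 5.33. Between them stood a peak with no shift to speak of, at 2.57 and 2.04 against 2.39 and 2.45 CPM, so the rise did not cover every peak of the interval.

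At Ankrd1 a group of 4 spanned 19.6 kb (chr19:36110503-36130059) and held the promoter, a peak within the gene and a peak on each flank. The peak 1.04 kb beyond the lower-coordinate end had 4.51 and 3.93 CPM in wild type and 21.3 and 11 in mutant, and the peak 9.75 kb beyond the start had 6.85 and 4.56 against 16.4 and 16.9. The 3 peaks between that missed the rule had log2 ratios of the means from 0.72 to 1.05, so the 7 peaks of the interval were all higher on average, by 0.72 to 1.82. Outside the group, the 8 other peaks within 60 kb of its centre had log2 ratios from -0.09 to 0.48.

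At Lbh, a transcription cofactor gene named for limb bud and heart, 4 gained peaks lay in 15.2 kb at the higher-coordinate end (chr17:72933355-72948552). The strongest had 7.25 and 3.14 CPM in wild type and 20.5 and 14.8 in mutant; here the wild-type libraries differed more than 2-fold. Its neighbour (chr17:72941980-72942603) had 4.28 and 3.35 against 9.26 and 8.78. The 5 other peaks of the interval had log2 ratios of the means from 0.06 to 1.11.

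**Figure D5:**
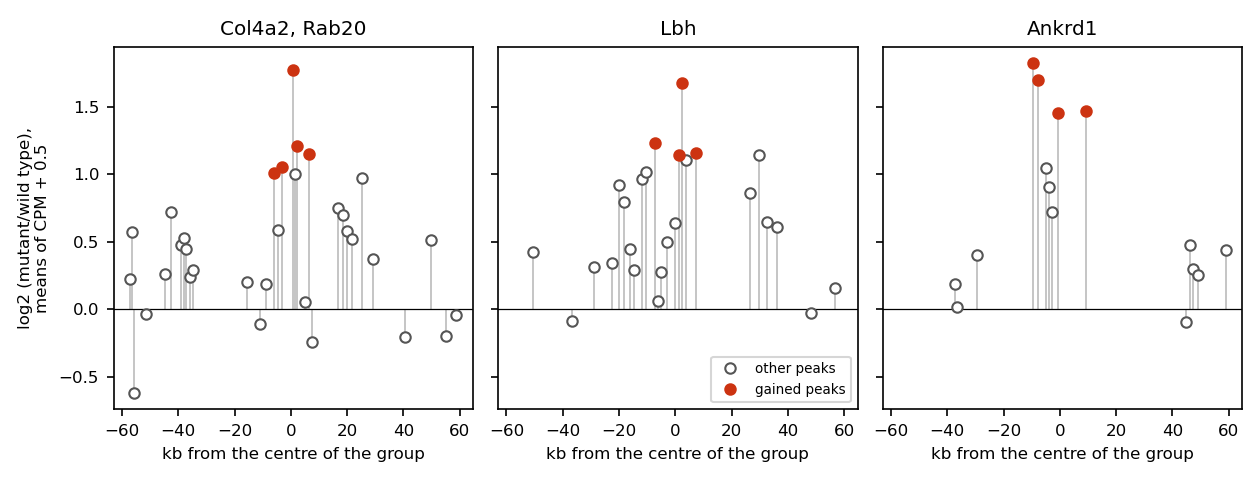
Log2 ratio of mean mutant to mean wild-type CPM, each with 0.5 added, of every peak within 60 kb of the centre of the groups at Col4a2 and Rab20, Lbh and Ankrd1 (horizontal axis in kb from the centre); red points are gained peaks and open points other peaks. Gained peaks stand between 1.01 and 1.82, and at Ankrd1 the 3 open points between them reach 0.72 to 1.05.

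Of the groups of 3, those at Pdk4, Popdc2, Igf2bp2 and Cdyl lay within the gene. The others lay outside protein-coding genes, nearest to Qk, Slc16a1, Myc, Clhc1 and Rtn4, Tmem170b and Adtrp, and Dipk1c and Gm17266. At Pdk4, which encodes the kinase that shuts pyruvate out of the mitochondrial oxidation pathway, the 3 peaks filled 3.9 kb within the gene and were the only peaks of that interval. The peak at chr6:5493820-5494373 had 2.40 and 3.46 CPM in wild type and 9.14 and 9.60 in mutant, and that at chr6:5490506-5491278 had 4.17 and 3.30 against 11.9 and 9.66. At Popdc2, a cyclic AMP-binding membrane protein gene of heart and skeletal muscle, the strongest of 3 had 8.57 and 7.54 against 15.8 and 17.4. Beside Qk, which encodes the splicing regulator quaking, the strongest had 9.71 and 8.75 against 29.8 and 19.3.

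By nearest protein-coding gene at any distance, the 881 peaks fell to 755 genes, 99 of which had 2 or more and 20 had 3 or more. Genes with 4 or more, named after their counts were seen, were Myc (5 of its 53 nearest peaks), Ankrd1 (4 of 16), Exoc4 (4 of 14), Irx5 (4 of 15), Lbh (4 of 30) and Rab20 (4 of 14). The 5 at Myc lay 187.3 to 338.4 kb away, on both sides of it. Those at Exoc4, a gene of the exocyst tethering complex, lay within the gene, and the strongest had 1.37 and 2.62 CPM in wild type and 5.79 and 6.27 in mutant. Those at Irx5, a homeobox gene that shapes the ventricular repolarisation gradient, lay 3.5 to 230.0 kb away, and the strongest in the mutant (chr8:92352375-92353246) had 4.34 and 3.93 against 12.1 and 9.85. Lost peaks were nearest the same genes in 1 case at Myc and in 0 at the other 5.

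Gained peaks were then counted near 15 lists of genes, drawn up with earlier results of these data known, by nearest protein-coding gene end within 50 kb. Over all 65588 autosomal peaks with a gene so assigned, 617 (0.941%) were gained, 507 were lost, and the median edgeR log2 fold change was 0.02. Neither this share nor those of the lists were weighted to a common abundance. Over the autosomes the gained share fell with the mean CPM, from 1.52% below 3 CPM to 0.218% from 20 to 50. In bulk tissue, fewer cells of a type and less open chromatin per cell cannot be told apart.

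Fetal contractile genes are active in the unborn heart, and stress genes respond to overload. Near them 7 of 159 peaks were gained (4.40%) and 0 lost, with a median log2 fold change of 0.17 over the list. Of the 7, 4 belonged to Ankrd1. A peak 0.867 kb from Ccn2, the gene of a matrix-associated growth factor modulator (chr10:24598790-24600311), had 9.42 and 7.49 CPM in wild type and 19.2 and 21.6 in mutant. A peak within Tnni1, the slow skeletal troponin I gene used by the fetal heart (chr1:135799946-135800955), had 3.88 in both wild-type libraries and 9.08 and 9.60 in mutant. The peak near Xirp2, an intercalated disc gene, had 1.60 and 1.57 against 10 and 6.40.

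Among mature contractile genes 4 of 387 peaks were gained (1.03%) and 1 lost, close to the share over all genes. The median log2 fold change of the list was 0.15, near that of the fetal list. Of its 387 peaks edgeR called 22 higher and 8 lower, against 16 and 2 of 159 in the fetal list. Over all 65588 peaks with a gene it called 1924 higher and 1188 lower. The gained peaks of the mature list lay at Myom2, an M-band gene (2 peaks), Myoz2, a Z-disc gene, and Actn2, the alpha-actinin gene. The stronger Myom2 peak (chr8:15138015-15139288) had 5.94 and 7.49 CPM in wild type and 14.2 and 14 in mutant, and the Myoz2 peak had 5.94 and 5.45 against 11.6 and 12.1. Their folds of the means, 2.02 and 2.0, were below the median of the gained peaks.

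The fatty acid oxidation list had 5 gained of 223 peaks (2.24%) and 2 lost, with a median log2 fold change of 0.19. Of the gained, 3 lay at Pdk4, 1 within Acadl, the long-chain acyl-CoA dehydrogenase gene, and 1 near Lpl, the lipoprotein lipase gene. The Acadl peak had 1.66 and 0.733 CPM in wild type and 5.73 and 4.52 in mutant.

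Ion channel and gap junction genes had 5 gained peaks of 225 (2.22%), each at a different gene, and 1 lost, and a median log2 fold change of 0.23. A peak within Kcnq1, a delayed rectifier potassium channel gene (chr7:143119670-143120653), had 4.63 and 4.50 CPM in wild type and 9.98 and 9.41 in mutant. Of the others, 3 lay at Cacna1h, a T-type calcium channel gene, Gja5, the connexin gene of atria and conduction tissue, and Kcnh2, with 0.681 to 1.88 CPM in wild type and 2.87 to 4.06 in mutant.

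Cardiac transcription factor genes had 7 gained of 337 peaks (2.08%) and 5 lost, with a median log2 fold change of 0.10. Of the gained, 4 lay at Lbh and 1 each near Tbx20, Myocd and Mrtfb. The Tbx20 peak (chr9:24782186-24782776), 8.18 kb from this T-box gene, had 4.17 and 4.92 CPM in wild type and 12.0 and 11 in mutant. Myocd and Mrtfb encode coactivators of SRF, and their peaks had 2.63 and 1.89 against 5.85 and 5.83, and 2.57 and 2.20 against 5.85 and 5.08.

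Hippo pathway and target genes had 4 gained of 187 peaks (2.14%, median log2 fold change 0.09) and 1 lost. The gained peaks lay at Vgll4, Ajuba, Amotl2 and Tead3. Those at Ankrd1 and Ccn2 were counted in the fetal contractile and stress list and not here. Ajuba encodes a LIM protein that binds LATS kinases, and its peak (chr14:54572689-54573424) had 3.71 and 4.19 CPM in wild type and 8.84 and 14.4 in mutant. The peak near Amotl2, an angiomotin family gene, had 2.86 and 2.57 against 8.06 and 9.91, and that within the transcription factor gene Tead3 had 3.43 and 4.35 against 8.66 and 8.65. Near AP-1 and immediate early genes 0 of 143 peaks were gained and 0 lost, with a median log2 fold change of -0.04. Over all peaks with a gene 0.941% were gained. The peaks of this list were strong, with a sum of 3227 to 3392 CPM in the 4 libraries. The 159 peaks of the fetal list had 1857 to 2258. A count of 0 in so short a list is not read as a result about these genes. Near cell cycle genes 1 of 118 was gained (median log2 fold change 0.10), at E2f3, with 0.857 and 0.995 CPM in wild type and 4.60 and 2.13 in mutant.

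Markers of other cell types held 7 gained peaks, and the shares ranged widely over lists of very unequal size. The highest shares of all 15 lists were 2 of 30 peaks near Schwann and neuronal genes (6.67%) and 1 of 18 near epicardial genes (5.56%), each resting on 1 or 2 peaks. The shares were 2 of 223 near endothelial genes (0.897%), 1 of 143 near fibroblast genes (0.699%), 1 of 90 near mural genes (1.11%), 0 of 18 near immune genes and 0 of 21 near skeletal muscle genes. The median log2 fold change was 0.29 over the Schwann and neuronal list and -0.19 over the endothelial list. In the other 5 of these lists it lay between -0.07 and 0.06. Of the 223 endothelial peaks edgeR called 2 higher and 9 lower, against 1924 and 1188 of all 65588 peaks with a gene. Of the endothelial pair, the peak within Flt1, a VEGF receptor gene (chr5:147606761-147607181), had 1.71 and 2.99 CPM in wild type and 9.68 and 9.60 in mutant. The peak 47.7 kb from Emcn had 3.83 and 3.88 against 7.17 and 7.34. A peak 29.8 kb from Th, the tyrosine hydroxylase gene of catecholamine neurons (chr7:142929511-142930112), had 2.0 and 2.57 against 9.44 and 8.72. The other gained peak of that list lay within the myelin gene Mbp (4.17 and 4.09, then 8.0 and 11.3). The summed level over the endothelial list was 2879 and 2329 CPM in wild type and 2196 and 2277 in mutant, and over the mature contractile list 6655 and 6344 against 7671 and 6601. All 23 endothelial genes and all 25 mature contractile genes had peaks. No peak was assigned to 8 of 16 immune genes, 5 of 14 Schwann and neuronal, 3 of 8 epicardial and 4 of 13 skeletal muscle genes. The shares of these lists rest on the remaining genes. The part of cell type makeup in the gained peaks was not tested.

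The gained peaks were spread over all 19 autosomes. Counted against the number that peaks of the same abundance would place on each chromosome, they ranged from 0.64 times on chromosome 12 (24 peaks) and 0.67 on chromosome 7 (34) to 1.30 on chromosome 13 (52) and 1.36 on chromosome 17 (53). Around Carm1 on chromosome 9 there was no excess: 0 of 185 peaks within 1 Mb of the gene were gained, 3 of 336 within 5 Mb (0.893%) and 6 of 615 within 10 Mb (0.976%), against 1.02% over the autosomes.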

How the data were processed

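Heart ATAC-seq libraries from 4 samples were analysed. The authors deposited whole-number counts of each peak in each library, not normalized, as 1 table. Libraries were made by a commercial provider per the labels, and the submitters' processing notes name FastQC, Bowtie2 and mm10, without versions. Not given in the sources used here: the peak caller, read filters, duplicate handling and transposase shift, any of which could change a count.

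CPM was computed from column totals. The fit on all peaks used edgeR 4.0.16 in R 4.3.3 (quasi-likelihood, TMM, filterByExpr, which removed 0 peaks), was tested on simulated data, and had DESeq2 1.42.0 as an alternative. Positions and lists were computed in Python 3.11.15. The weighted comparison used 10 bins at deciles of the gained peaks' mean CPM. Distances run from a peak's midpoint to the nearest gene end (RefSeq, GRCm38.p6). All 297 list entries matched the gene table. Sequences are from RefSeq. Planned gene starts were replaced by gene ends, since the gene table has no strand and the promoter table is not complete.

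The regions, lists, tests and alternatives were chosen with earlier results of these data known. Named peaks were the 8 with the largest ratio and the 6 with the highest mutant CPM (1 per gene), up to 3 in each of the 4 largest groups, up to 2 per list, those at the limit, 4 at promoters and those near Carm1 (0 found, beside its gene-end peak). Other names follow from counts of 5 or fewer or were chosen after their values were seen. Results on a few of the named genes are not reported here.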

Additional observations from a re-analysis of the deposited data

How the results depend on the processing

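The direction of the 881 gained peaks is fixed by the rule under any of the scalings and without any 1 library, so it says nothing about stability. The number chosen depends on the limits. It was 2126 at a fold of 1.5, 405 at 2 and 534 at a mean mutant CPM of 5, and it ran from 1947 to 2890 when 1 library was left out. Calls by edgeR (2683 higher, 2156 lower) became 1365 and 1008 with DESeq2 and ran from 642 to 4307 higher and from 364 to 4132 lower without 1 library. The calls among the 881 ran from 360 to 817 in those fits: 466 without wild-type replicate 1, 360 without wild-type replicate 2, 803 and 817 without mutant replicates 1 and 2. In all, 284 were called whichever library was left out. With a replicate block there were 5230 higher and 4494 lower calls. The pairing rests on a shared number only, and replicate differences of the 2 genotypes correlated at 0.11 across peaks.

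The share near a gene end was 9.76% within 2 kb (15.0% at the same abundance), 9.99% with all genes of the table (14.4%), 2.72% at a fold of 2 (9.54%) and 2.72% for promoter window overlap (6.26%), and it ran from 5.75 to 7.96% without 1 library (9.69 to 10.2%). It lay below the comparison in each. The share with a gained peak nearby was 13.7% at 20 kb, 26.4% at 100 kb, 11.1% at a fold of 2 (3.21%) and 15.8% with peaks under 1 kb apart merged, and it ran from 27.3 to 35.2% without 1 library (15.2 to 22.0%), where more peaks were chosen. The median width ran from 404 to 447 bp without 1 library, and was 447 against 425 bp at the same abundance without wild-type replicate 1. At the median count of 36 reads in a wild-type library, depth limits the precision of the folds.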

Other observations

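The rule left out the sex chromosomes. Of 1311 X-linked peaks, 13 (0.992%) met the same fold and abundance limits, close to the autosomal share, and of 25 Y-linked peaks 4 did. The summed level of the Y-linked peaks was 133 and 75.1 CPM in the wild-type libraries and 229 and 142 CPM in the mutant libraries. The labels gave no sex, and the part of sex makeup in the Y-linked peaks was not tested.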
